A study of Mus musculus with 20 samples.

Results

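The 34 genes described here are interferon response genes, listed by name as transducers, sensors and targets of interferon signalling. No measured value was used to pick them, though earlier results of these data were known when the list was chosen. Through transcript accessions, 32 of them were matched to an array probe, and 29 could be tested, among 18727 genes tested of 22911 matched. Mx1 and Mx2, which encode dynamin-like antiviral GTPases and are annotated as transcribed pseudogenes in the reference used (RefSeq, GRCm38.p6), were not matched to a probe, and no value is given for them. Oas3, Ifit3 and Gbp3 were well above background on 4, 3 and 3 of 20 arrays and were not tested.

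Male mice gave the hair follicle stem cells whose RNA was measured on 20 one-colour arrays. A normal diet (ND) or a high fat diet (HFD) was given for 3 months to mice labelled 5 months old, or for 4 days to mice labelled 2 months old, and a further group, with no diet in its label, was 24 months old (aged). Each of these 5 conditions had 3 telogen arrays (follicles at rest) and 1 anagen array (growing follicles). The labels give no strain and no way of isolating the cells, and they do not say that replicates came from separate animals, so the p-values below speak of the scatter among these samples, which may be technical.

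Interferons are secreted proteins released when cells sense viral or misplaced nucleic acid. Type I interferons act through the receptor chains Ifnar1 and Ifnar2 and the kinases Jak1 and Tyk2, which lead to a complex holding Stat2 and Irf9 that binds a promoter element called the interferon-stimulated response element (ISRE). The genes switched on in this way block viral replication, tag proteins with Isg15, raise antigen presentation and limit the signal itself, and epithelial stem cells are known to keep some of them on without infection.

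The ISRE was looked for in the RefSeq promoter windows of the list, each 300 bases long around the annotated start. It was spelled as 2 copies of GAAA with any 2 bases between them, on both strands, with overlapping matches counted. Of the 34 genes, 26 had a window, and 11 of these (42.3%) held a match, against 3.99% of 27025 genes with a window. The gamma-activated site, spelled TTCNNNGAA, which reads the same on both strands, was in 5 of 26 windows (19.2%) against 9.55% of all. The ISRE matches lay in Bst2, Gbp2, Gbp3, Ifih1, Ifit1, Ifit3, Isg15, Oas1a, Oas3, Rsad2 and Stat2. Zbp1, Ifi27l2a, Usp18, Oas2, Parp9, Parp14, Mx1 and Mx2 had no entry among the windows. Windows of 3 genes whose values are described in detail are printed 5′ to 3′ on the strand of the gene, with the ISRE matches in capitals. The Oas1a window is chr5:120907476-120907775 on the minus strand, that of Stat2 is chr10:128270248-128270547 on the plus strand, and that of Bst2 is chr8:71537423-71537722 on the minus strand, all in GRCm38.p6. A match is a description of the letters and not a measured binding site.
Oas1a: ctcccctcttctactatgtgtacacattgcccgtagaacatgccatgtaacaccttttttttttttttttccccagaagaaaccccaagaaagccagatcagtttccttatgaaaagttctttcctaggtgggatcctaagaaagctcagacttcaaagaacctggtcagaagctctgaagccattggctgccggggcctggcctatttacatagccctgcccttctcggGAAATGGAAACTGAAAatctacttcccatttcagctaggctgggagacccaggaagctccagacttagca
Stat2: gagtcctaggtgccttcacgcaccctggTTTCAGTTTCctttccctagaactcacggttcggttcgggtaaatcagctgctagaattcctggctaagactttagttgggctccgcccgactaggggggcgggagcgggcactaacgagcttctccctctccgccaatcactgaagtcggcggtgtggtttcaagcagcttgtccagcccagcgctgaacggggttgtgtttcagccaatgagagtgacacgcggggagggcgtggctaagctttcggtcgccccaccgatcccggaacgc
Bst2: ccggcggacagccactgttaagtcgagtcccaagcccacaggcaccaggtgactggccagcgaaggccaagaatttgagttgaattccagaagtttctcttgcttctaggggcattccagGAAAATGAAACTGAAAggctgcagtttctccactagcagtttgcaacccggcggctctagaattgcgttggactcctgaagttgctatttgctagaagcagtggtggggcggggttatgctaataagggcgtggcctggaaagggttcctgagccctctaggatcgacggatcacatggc
The windows of Oas1a and Bst2 hold 2 overlapping matches each, and that of Stat2 holds 1 match on the opposite strand. In the Bst2 window a gamma-activated site, TTCCAGGAA, overlaps the start of the ISRE run, and the Oas1a window holds a separate one, TTCAAAGAA.

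Levels are given as log2 of the background-corrected spot signal minus the 75th percentile of the same array, so 0 is the level of that percentile, and a difference of 1 is a 2-fold change. The median level of the 29 interferon response genes tested was -2.09, against -0.892 over all genes tested. Below the latter, which by definition splits all genes evenly, lay 17 of 29. Well above background on all 20 arrays were 16 of the 29. These were Stat2, Irf9, Irf7, Oas2, Rsad2, Bst2, Ifi35, Ifi27l2a, Isg15, Trim25, Dtx3l, Ifih1, Zbp1, Psmb8, Psmb9 and Tap1. Between 22 and 29 of the 29 were well above background on a given array. The median standard deviation within a telogen group was 0.905, against 0.667 over all genes, and 19 of 29 genes exceeded the latter. The 95% interval of a difference had a median half-width of 1.51 in the telogen comparisons, against 1.15 over all genes, and the number of arrays limits the precision.

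The labelled cell type was checked against its markers, and all 11 bulge stem cell markers, Cd34, Krt15 and Lgr5 among them, were well above background on 20 of 20 arrays. Of 21 macrophage and Langerhans cell markers, 13 to 18 were well above background on an array. Their summed linear signal, with the 75th percentile of an array as 1, ranged from 121 to 244 in telogen and from 119 to 213 in anagen, with 71.2% to 96.3% of it from Itgam and Epcam, the latter also a gene of epithelial cells. Without these 2 it was 7.7 to 21.4 in telogen, 5.31 to 18.2 on 4 anagen arrays and 52.7 on the aged anagen array, while Adgre1, Mrc1, C1qc and Itgax reached that level on 3, 2, 1 and 1 arrays. Of 17 T and NK cell markers, 10 to 16 were well above background on an array, with summed signals of 5.98 to 15.5 in telogen and 8.12 to 15.1 in anagen, and Gzmb was so on 0 of 20. Of 7 plasmacytoid dendritic cell markers, 6 or 7 were well above background on an array, with Siglech at a mean level of 4.90. The fibroblast markers Fbln1 and Col1a2, at 4.07 and 1.80, and the melanocyte marker Dct, at 1.27, were so on 20 of 20 arrays. Of the other fibroblast markers, Col3a1 was so on 20, Col1a1 on 17, Pdgfra on 6, Dpt on 5, Dcn on 3 and Lum on 2. Of the endothelial markers, Pecam1 was so on 17 and Plvap on 16. Emcn, Tek and Flt1 were so on 4, 3 and 2, and Cdh5 and Kdr on 0. The part of such cells in the values was not tested. Since whole samples were hybridised, fewer cells of a type and less RNA per cell cannot be told apart. Diet groups of 1 duration shared a slide, but there row 1 held the ND and row 2 the HFD telogen arrays, which means that effects of the row and of the diet cannot be told apart. The 3 ages lay on different slides in telogen, so age and slide cannot be told apart there except through the single anagen arrays. The anagen arrays filled column 1 of their slides and the telogen arrays columns 2 to 4, so phase and column cannot be told apart.

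None of the 29 genes passed the threshold of 0.05 in any comparison between telogen groups, and 4 passed between anagen and telogen. The test was limma's moderated test, two-sided, with Benjamini-Hochberg adjustment over the 18727 genes. Each comparison is taken in turn, and the telogen comparisons share arrays with one another where they use the same group.

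**Figure D1:**
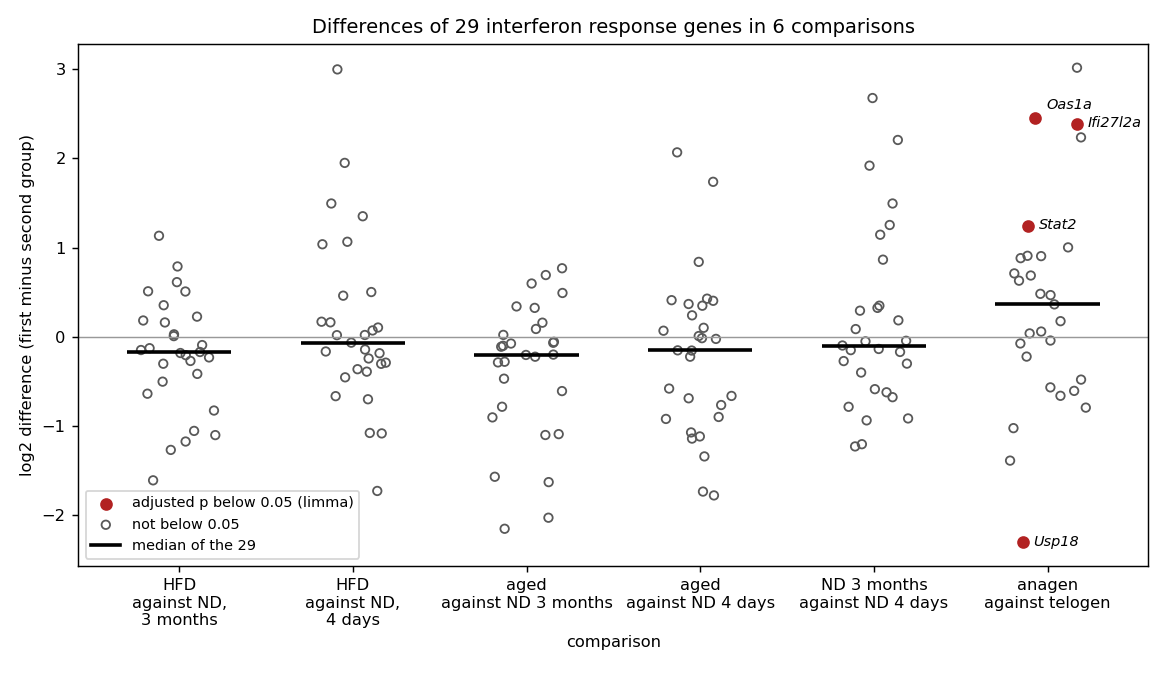
Log2 differences (vertical axis, first minus second group) of the 29 tested interferon response genes in 6 comparisons (horizontal axis). Each circle is a gene, filled red where the adjusted p was below 0.05, and bars are medians of the 29. Red points appear in anagen against telogen alone among these 6, where Ifi27l2a, Oas1a and Stat2 lie above 0 and Usp18 lies at -2.30.

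**Figure D2:**
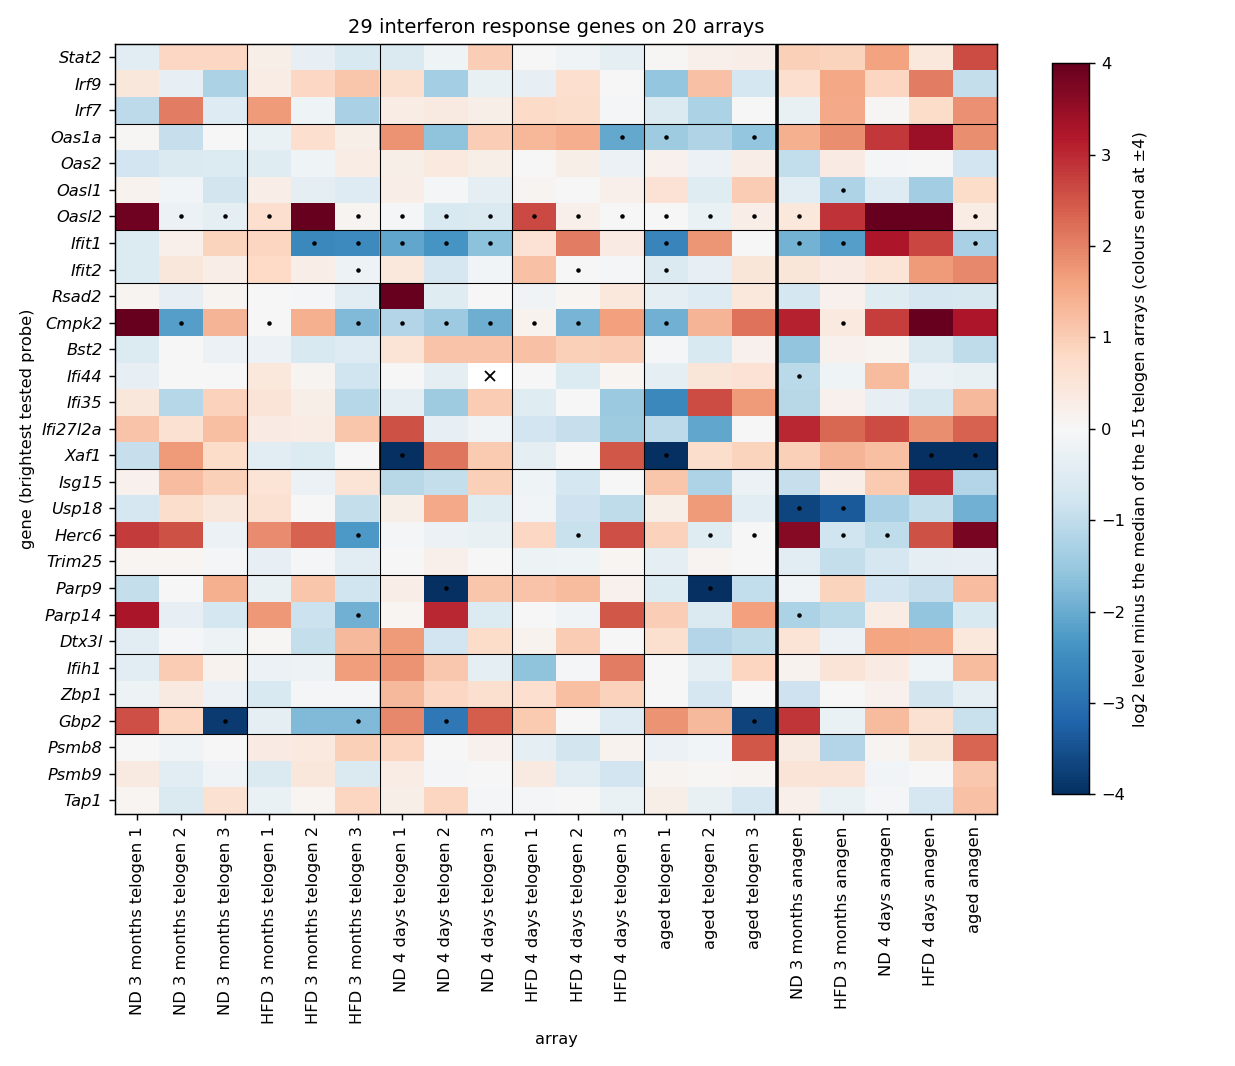
Level of each of the 29 genes (rows, grouped by role) on each of 20 arrays (columns), as log2 difference from its median over the 15 telogen arrays. Dots mark values not well above background, the cross marks the 1 missing Ifi44 value, and the heavy line separates telogen from anagen. No telogen group is red or blue throughout. Above their telogen median lie 14 to 19 of the 29 genes on an anagen array, beside 37.5% to 56.9% of all genes, and 10 to 19 on a telogen array.

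Anagen against telogen asked whether the growth phase differs from rest, with condition held fixed over 5 anagen and 15 telogen arrays. Ifi27l2a, Oas1a and Stat2 were higher in anagen and Usp18 was lower, with changes between 2.37-fold and 5.47-fold. These 4 of 29 stand beside 6.11% of all genes tested that passed in this comparison, 2.81% higher and 3.31% lower. Of the 29, 18 had a difference above 0, against 39.6% of all genes, and their median difference was 0.363, against -0.156 over all genes. At an unadjusted p below 0.05 there were 6 higher and 4 lower, against 8.94% and 13.9% of all genes. Under median scaling in place of the 75th percentile, the median over all genes moved to 0.0563 and that of the 29 to 0.575, with 20 of 29 above 0. The split of the genes passing over the whole array moved with it, from 526 higher of 1145 to 653 higher of 989. With the 75th percentile, the difference had the same sign in all 5 conditions for 5 genes that were higher (Ifi27l2a, Oas1a, Stat2, Ifit2 and Cmpk2), against 9.25% of all genes, and for 3 that were lower (Usp18, Trim25 and Parp14), against 9.67%. Cmpk2 and Oasl2 were well above background on all 3 arrays of 0 telogen groups and entered the test through the anagen arrays alone, so that they had to be high there, and their direction supports nothing. They make up 2 of the 6 at an unadjusted p below 0.05 and Cmpk2 is 1 of the 5 above. Among the 27 other genes 16 were above 0, with a median of 0.175, beside 39% and -0.162 for all genes that entered through a telogen group, and 4 were higher at an unadjusted p below 0.05, beside 8.6%.

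Markers of the cells themselves differed between the phases as well. Of the 11 bulge stem cell markers 3 fell in anagen, Cd34 by 2.19, Krt15 by 0.81 and Col17a1 by 0.72 (log2, adjusted p 1.99e-05, 0.0137 and 0.0128, limma), and 10 of 11 differences were below 0, with a median of -0.404. Over all genes 39.6% had a difference above 0, with a median of -0.156, and 2.81% passed as higher and 3.31% as lower. With median scaling 7 of the 11 bulge markers were below 0 and 1 passed, beside a median of 0.0563 over all genes. Of 5 tested red blood cell markers all had differences below 0 under both scalings, and 1 passed with the 75th percentile and 0 with the median. Of 6 tested fibroblast markers 1 passed in each direction under either scaling. With the 75th percentile Col1a2 was lower, at -1.9, and Dcn was higher (adjusted p 0.00212 and 0.0118, limma). Dcn was well above background on 3 arrays in all, so no size is given for its difference. The part of these shifts in the interferon response values was not tested.

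Ifi27l2a encodes a small interferon-induced membrane protein. Its level on the anagen arrays was 1.26 (ND 3 months), 0.53 (HFD 3 months), 0.84 (ND 4 days), 0.10 (HFD 4 days) and 0.61 (aged), and on the 15 telogen arrays it ran from -3.82 through a median of -1.76 to 0.79. One telogen array, ND 4 days replicate 1 at 0.79, reached into the anagen range, and the other 14 lay below it. The gene rose by 2.39 ± 0.41 (log2, SE), or 5.23-fold, with an adjusted p of 0.00247 (limma). Within conditions the differences were 2.03, 1.72, 1.90, 2.89 and 3.41 in the same order. A further probe for another transcript of the gene, also well above background on all 20 arrays, gave -0.37 ± 0.51 with an adjusted p of 0.694 (limma, over the tested probes), and the mean over both probes gave 1.01 with an adjusted p of 0.0721. The 5.23-fold change is therefore that of the brighter probe, and the cause of the disagreement was not tested.

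Oas1a makes 2-5A, the messenger that switches on RNase L to degrade viral RNA. Its anagen levels were -2.68 and -2.26 for the ND and HFD 3 months arrays, -1.30 and -0.68 for the 4-day ones and -2.25 for aged, and its telogen levels ran from -6.18 through a median of -4.12 to -2.31. The probe was well above background on 5 of 5 anagen and 12 of 15 telogen arrays, and 2 telogen arrays, both from mice fed for 4 days, lay above the lowest anagen array. Oas1a rose by 2.45 ± 0.54 (log2, SE), or 5.47-fold, with an adjusted p of 0.0126 (limma). The 5 differences within conditions were 1.73, 1.65, 2.43, 3.19 and 3.26.

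Stat2 is a partner of Irf9 in the complex that binds the ISRE. Its anagen levels were 0.69, 0.61, 1.35, 0.14 and 2.33 in the same order of conditions, and its telogen levels ran from -0.89 through -0.27 to 0.70. The aged anagen array was highest, and 3 telogen arrays lay above the lowest anagen array. The gene rose by 1.25 ± 0.30 (log2, SE), or 2.37-fold, with an adjusted p of 0.0195 (limma). Its other probe, on the same transcript and well above background on 19 of 20 arrays, gave -1.38 ± 0.80 with an adjusted p of 0.326 (limma, over the tested probes), and the mean over both gave -0.07 with an adjusted p of 0.93. The direction for Stat2 thus turned with the choice of probe, and the cause was not tested.

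Usp18 removes Isg15 from proteins and restrains signalling at the type I receptor. Its anagen levels were -5.24 and -4.95 for the ND and HFD 3 months arrays, -2.87 and -2.53 for the 4-day ones and -3.50 for aged. The 2 arrays of 5-month mice were the lowest, and on them the probe was not well above background. Its telogen levels ran from -2.60 through -1.58 to 0.12, all 15 of them well above background, and 2 telogen arrays lay below the highest anagen array. Usp18 fell by 2.30 ± 0.47 on the log2 scale, or 4.93-fold, with an adjusted p of 0.0086 (limma).

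**Figure D3:**
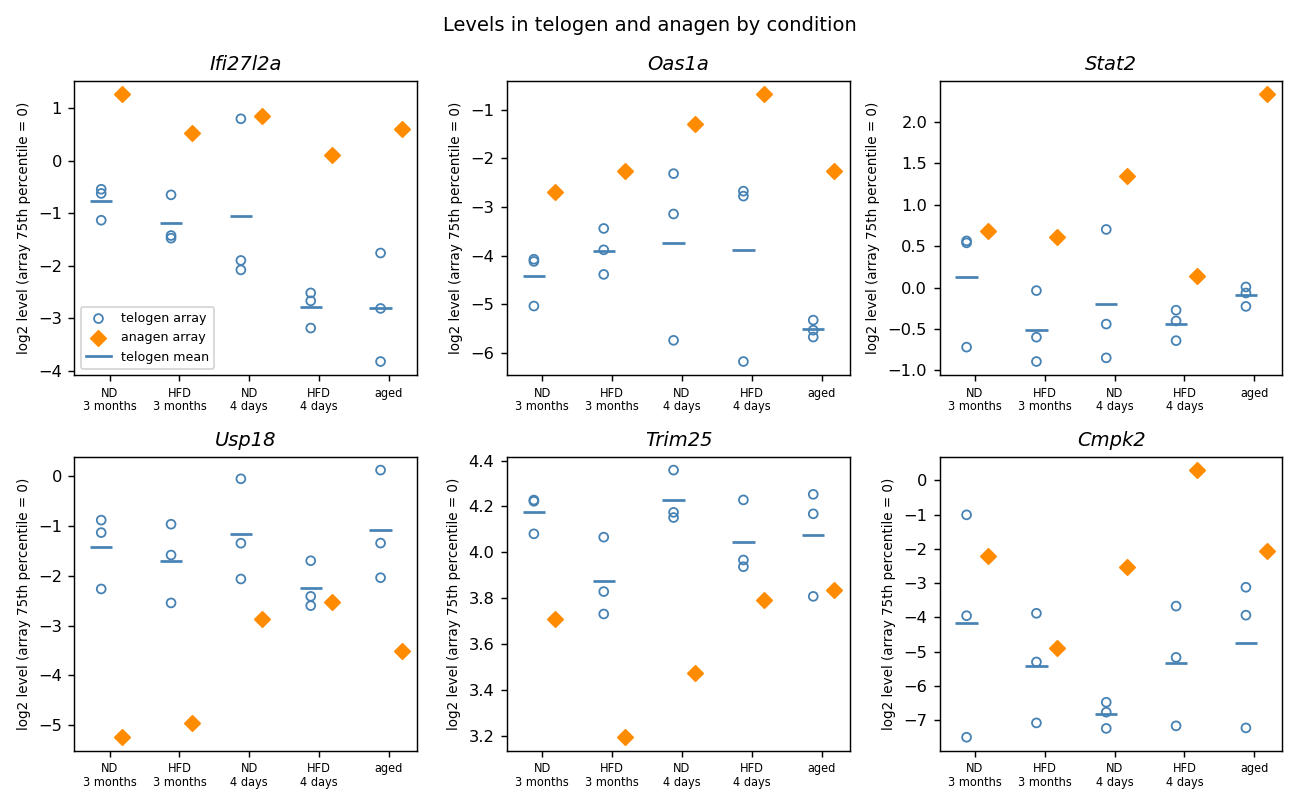
Log2 levels (vertical axis, 0 is the 75th percentile of the array) of 6 genes by condition (horizontal axis), with telogen arrays as open circles, their mean as a line and the single anagen array as a diamond. Anagen diamonds lie above the telogen mean in all 5 conditions for Ifi27l2a, Oas1a, Stat2 and Cmpk2 and below it for Usp18 and Trim25, of which Cmpk2 and Trim25 did not pass the test.

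Which arrays carried these 4 calls could be read from leaving out each array and from the slides. Over all 18727 genes 1145 passed in the main fit. Without the aged anagen array 761 of them all and 2 of the 29 passed, Ifi27l2a and Usp18. Stat2 then had an adjusted p of 0.0932 and Oas1a of 0.0517 (limma). Without the HFD 3 months anagen array 8 of the 29 passed, and Bst2, Cmpk2, Ifit2 and Zbp1 joined the 4. The count over all genes rose as well, to 2056. Usp18 was at an adjusted p of 0.0514 without the ND 3 months anagen array, Stat2 at 0.0787 without that of ND 4 days, and Oas1a at 0.0594 without that of HFD 4 days. With the slide as a block, Oas1a stood at 2.47 (adjusted p 0.0708, limma). Ifi27l2a, Stat2 and Usp18 passed at 0.0279, 0.0463 and 0.02, and Bst2 passed at -0.99 with an adjusted p of 0.0277 (limma), beside 677 of all genes. The block fits the HFD 3 months and HFD 4 days anagen arrays exactly. Its phase differences thus come from ND 3 months, ND 4 days and aged alone, and the HFD 3 months array has no weight in that of Bst2. A fit on these conditions only, whose 2 phases shared a slide, gave the same differences and is not a separate check. They were 2.44 for Ifi27l2a, 2.47 for Oas1a, 1.51 for Stat2 and -2.65 for Usp18. With fewer arrays to estimate the spread, 0 of the 4 passed (adjusted p between 0.0545 and 0.104, limma), beside 317 of all genes. Over all alternatives the adjusted p ran from 0.000225 to 0.694 for Ifi27l2a, from 0.00245 to 0.072 for Oas1a, from 0.00897 to 0.93 for Stat2 and from 0.00367 to 0.0545 for Usp18 (limma). The mean log2 level of the macrophage and Langerhans markers was -0.565 on the aged anagen array and between -3.21 and -1.80 on the other 19, and its part in the results was not tested.

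Among the other transducers, Irf9, which gives the complex its DNA contact, read 1.18, 2.05, 1.37, 2.55 and -0.47 on the anagen arrays in the same order and -1.05 to 1.67 in telogen, with a median of 0.50. The aged anagen array was the low one, and the difference was 0.88 ± 0.43 with an adjusted p of 0.237 (limma). Irf7, which amplifies type I interferon production, had a difference of 0.69 ± 0.52.

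In the OAS family, Oas2 and Oasl1 differed by -0.22 ± 0.19 and -0.57 ± 0.27. Oasl2, well above background on 2 of 15 telogen and 3 of 5 anagen arrays, had anagen levels of -1.80 and -1.84 in the 4-day conditions and -6.94, -4.45 and -7.07 in the rest, and it did not pass (adjusted p 0.175, limma). The IFIT proteins bind foreign RNA ends. Ifit2 read -4.55, -4.69, -4.49, -3.32 and -3.11 in anagen and -5.71 to -3.84 in telogen, with a median of -5.03. Its 2 highest arrays were the HFD 4 days and aged anagen arrays, and its difference was 0.90 ± 0.31 with an adjusted p of 0.097 (limma), which became 0.0272 with quantile normalization and 0.0477 with median scaling. Ifit1 differed by 0.63 ± 0.88.

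Cmpk2, a mitochondrial nucleotide kinase, did not pass (adjusted p 0.0692, limma). It read -2.21, -4.89, -2.54, 0.30 and -2.06 in anagen, and -7.50 to -1.01 in telogen, and was well above background on 4 of 5 anagen but 6 of 15 telogen arrays, so no size is given for its difference. It passed without ND 3 months telogen replicate 1 (adjusted p 0.0286, limma). Bst2, or tetherin, holds budding virus at the cell surface, and it read -1.33, 0.42, 0.36, -0.35 and -0.78 in anagen and -0.37 to 1.42 in telogen, with a median of 0.24. The HFD 3 months array went the other way from the other 4, and the difference was -0.79 ± 0.25 with an adjusted p of 0.0718 (limma). It came under the threshold with the slide block, where that array has no weight, as given above. Rsad2 (viperin), Ifi35, Xaf1 and Ifi44 had differences of -0.66, -0.04, -1.02 and -0.07 and did not pass, and for Ifi44 1 telogen value of ND 4 days replicate 3 was missing because its spot was marked as an outlier.

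Trim25, the E3 ligase that modifies the RNA sensor RIG-I, had a within-group standard deviation of 0.162. It read 3.71, 3.19, 3.47, 3.79 and 3.83 in anagen and 3.73 to 4.36 in telogen, with a median of 4.15. Each anagen value was below its condition's telogen mean, and the difference of -0.48 ± 0.14 stood just outside the threshold (adjusted p 0.0557, limma). It passed under 4 alternatives, at 0.0407 with the percentile over detected probes, 0.0392 with only probes above background on all arrays, 0.0109 with a trend in eBayes and 0.042 without aged telogen replicate 1. Isg15 itself, the ubiquitin-like modifier, ranged from -1.65 in aged to 2.43 in HFD 4 days on the anagen arrays, with a difference of 0.36 ± 0.56, and Herc6, its mouse ligase, had 1.00 ± 0.81. Those anagen values of Isg15 span more than the telogen range of -1.71 to 0.76.

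Parp9, Parp14 and Dtx3l, which add ADP-ribose or ubiquitin in antiviral signalling, had differences of 0.47 ± 0.85, -1.39 ± 0.74 and 0.71 ± 0.41. Dtx3l read 0.53, -0.26, 1.55, 1.54 and 0.41 in anagen and -1.20 to 1.68 in telogen, with a median of -0.02. The RNA sensor Ifih1 (MDA5) had 0.06 ± 0.50, and Zbp1, a sensor of Z-form nucleic acid, had -0.61 ± 0.24 with an adjusted p of 0.146 (limma). Gbp2, a guanylate-binding protein that attacks the vacuoles of intracellular microbes, read -0.59, -3.72, -2.20, -2.85 and -4.36 in anagen and -7.28 to -0.89 in telogen, with a median of -3.45, and its difference was 0.91 ± 1.04. Psmb9, an immunoproteasome subunit, read 3.08, 3.08, 2.46, 2.54 and 3.65 in anagen and 1.80 to 3.00 in telogen, with a median of 2.56, and differed by 0.48 ± 0.23 (adjusted p 0.22, limma). Its partner Psmb8 and the peptide transporter Tap1 had 0.17 ± 0.43 and 0.04 ± 0.29.

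The 3-month diet comparison asked what prolonged high fat feeding did in telogen. None of the 29 genes passed, as in 0% of all genes tested, and 0 of 29 had an unadjusted p below 0.05, against 3.9% of all genes. A difference above 0 was seen for 11 of 29, against 46.3%, and the median was -0.171 against -0.0386. Oas2 had the smallest p of the list: -4.40, -4.19 and -4.17 in ND and -4.10, -3.80 and -3.32 in HFD. Those groups do not overlap, and the difference was 0.51 ± 0.27 (adjusted p 1, limma). Oas2 and Psmb8 were higher in HFD without overlap, against 4.15% of all genes, and Trim25 was lower without overlap, against 5.7%. Irf9 read 0.94, 0.18 and -0.78 in ND and 0.80, 1.34 and 1.60 in HFD, groups that overlap, with a difference of 1.13 ± 0.69. A second Irf9 probe, for another transcript, gave -0.21 ± 0.76. Ifit1 was well above background on 3 of 3 ND arrays (-5.25, -4.52 and -3.82) and 1 of 3 HFD arrays (-3.85, -7.29 and -7.26), and differed by -1.61 ± 1.08. One HFD array held the ND level and the other 2 were at background. Ifit1 entered the test through the ND 3 months and HFD 4 days telogen groups alone, so its direction here supports nothing. Stat2 read -0.72, 0.54 and 0.56 in ND and -0.04, -0.60 and -0.89 in HFD, a difference of -0.64 ± 0.44 that turned to 0.26 as the mean over both probes.

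At 4 days of high fat diet, again 0 of 29 genes passed, as in 0% of all genes. An unadjusted p below 0.05 was reached by Ifit1, which was higher, and Ifi27l2a, which was lower, against 2.17% and 2.19% of all genes. Ifit1 entered the test through the HFD 4 days and ND 3 months telogen groups alone. It had to be well above background there, so its direction supports nothing. Ifit1 read -6.79, -7.06 and -6.35 in ND, where 0 of 3 arrays were well above background, and -4.14, -2.67 and -4.40 in HFD, where 3 of 3 were. The groups do not overlap, and taking the dim arrays at the lowest signal called above background, the level was at least 4.57-fold higher in HFD (adjusted p 1, limma). Ifi27l2a read 0.79, -2.08 and -1.90 in ND and -2.52, -2.67 and -3.18 in HFD, without overlap, and the difference was -1.73 ± 0.69 (adjusted p 1, limma). ND replicate 1 alone lay far above the other 5 arrays. Without overlap, 2 genes, Ifit1 and Oasl2, were higher, against 3.73% of all genes, and 1 was lower, against 5.97%. Oasl2 was well above background on 0 of these 6 arrays, so its split lies among background readings. Usp18 read -1.34, -0.05 and -2.06 in ND and -1.70, -2.41 and -2.60 in HFD, which overlap, and differed by -1.08 ± 0.66. Parp9 had 1 ND array at -5.74 that was not well above background beside -0.85 and 0.00, against 0.04, 0.15 and -0.94 in HFD, and its 1.95 ± 1.37 moves with that array. Second probes gave 0.46 ± 0.79 for Ifi27l2a, of the opposite sign, and 0.60 ± 1.12 for Parp9, of the same sign. A difference above 0 was seen for 14 of 29, against 45.5%, and the median was -0.0658 against -0.0464.

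The difference between the diet effects at 3 months and at 4 days was tested directly, and 0 of 29 genes passed, as in 0% of all genes. Only Ifit1 had an unadjusted p below 0.05, against 3.74% of all genes (unadjusted p 0.0103, adjusted p 1, limma). Its diet difference lay below 0 at 3 months and above 0 at 4 days, and since 0 of 3 ND 4 days arrays were well above background, no size is given. Ifit1 entered the test through the ND 3 months and HFD 4 days groups alone, so its direction supports nothing. Next came Oas2 at 0.80 ± 0.38, Psmb8 at 1.28 ± 0.83 and Ifi27l2a at 1.31 ± 0.98. The second Ifi27l2a probe gave -0.22 ± 1.11. Psmb8 read 0.68, 0.55 and 0.66 in ND and 1.01, 1.08 and 1.63 in HFD at 3 months, without overlap, but 1.53, 0.69 and 0.87 in ND and 0.33, -0.05 and 0.82 in HFD at 4 days. The difference of effects was above 0 for 12 of the 29, against 50.2% of all genes, and its median was -0.134, against 0.00277 over all genes.

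The aged telogen group was set against both younger ND groups. Against ND 3 months, 0 of 29 genes passed, beside 0.0641% of all genes, and 9 of 29 had a difference above 0, against 53.5%, with a median of -0.2 against 0.0585. Ifi27l2a read -0.62, -1.13 and -0.55 in ND 3 months and -2.81, -3.82 and -1.76 in aged, without overlap, and differed by -2.03 ± 0.69 (unadjusted p 0.0125, adjusted p 0.305, limma). Oas2 lay the other way, with -3.46, -3.87 and -3.35 in aged, all above the ND 3 months values given above, and a difference of 0.69 ± 0.27 (adjusted p 0.352, limma). These were the only 2 of the 29 with an unadjusted p below 0.05, 1 higher and 1 lower, against 7.95% and 3.97% of all genes. Without overlap, Oas2 was higher, against 11.6% of all genes, and Ifi27l2a and Oas1a were lower, against 6.46%. Parp9 read -2.05, -1.10 and 0.32 in ND 3 months and -1.65, -5.56 and -2.07 in aged, where 2 of 3 arrays were well above background, and differed by -2.15 ± 1.37. Oasl1 read -3.56, -3.80 and -4.42 in ND 3 months and -3.11, -4.19 and -2.69 in aged, a difference of 0.60 ± 0.39. Second probes gave 0.73 ± 0.79 for Ifi27l2a, 0.14 ± 1.12 for Parp9 and -0.33 ± 0.43 for Oasl1, each of the opposite sign. With the slide as a block, which rests on the single anagen arrays, Oas2 turned to -0.93 and Parp9 to 1.81.

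Against ND 4 days, 0 of 29 genes passed, beside 0.0374% of all genes, and 12 of 29 had a difference above 0, against 43.7%, with a median of -0.152 against -0.0868. Bst2, Zbp1 and Ifi27l2a had an unadjusted p below 0.05 and were lower in aged, against 4.92% of all genes, and 0 were higher, against 2.93%. Bst2 read 0.77, 1.36 and 1.39 in ND 4 days and 0.14, -0.36 and 0.40 in aged, a difference of -1.12 ± 0.29 (adjusted p 0.298, limma). Zbp1 read 2.04, 1.58 and 1.39 in ND 4 days and 0.73, 0.09 and 0.76 in aged, a difference of -1.14 ± 0.31 (adjusted p 0.328, limma). Neither gene's groups overlap, and with Irf7 they were the 3 genes lower without overlap, against 6.51% of all genes. Ifi27l2a differed by -1.74 ± 0.69 (adjusted p 0.565, limma), with overlapping groups. Second probes gave -0.09 ± 0.79 for Ifi27l2a and 1.33 ± 0.55 for Zbp1. Oas1a read -2.31, -5.74 and -3.14 in ND 4 days and -5.53, -5.33 and -5.68 in aged, where 1 of 3 arrays was well above background, and differed by -1.78 ± 0.94.

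The 2 ND groups were compared with each other as 5-month against 2-month mice. Of the 29 genes 0 passed, beside 0.016% of all genes, and 12 had a difference above 0, against 41.4%, with a median of -0.0977 against -0.144. Bst2, Oas2 and Zbp1 had an unadjusted p below 0.05 and were lower in ND 3 months, against 9.04% of all genes, and 0 were higher, against 2.81%. Bst2 read -0.32, 0.24 and 0.00 in ND 3 months, all below the ND 4 days arrays, and differed by -1.20 ± 0.29 (adjusted p 0.219, limma). Oas2 read -3.38, -3.22 and -3.40 in ND 4 days, all above ND 3 months, and differed by -0.92 ± 0.27 (adjusted p 0.307, limma). Zbp1 read 0.56, 1.12 and 0.51 in ND 3 months, again without overlap, and differed by -0.94 ± 0.31 (adjusted p 0.345, limma). Together with Psmb8 these were the 4 genes lower without overlap, against 19.8% of all genes, so such a split was common here. Ifit1 was the 1 gene higher without overlap, against 4.41% of all genes, at least 2.64-fold, with 3 of 3 ND 3 months and 0 of 3 ND 4 days arrays well above background (adjusted p 0.452, limma). It entered the test through the ND 3 months and HFD 4 days telogen groups alone, so its direction supports nothing. With the slide as a block, which rests on the single anagen arrays, Ifit1 turned to -1.12 and Oas2 to 0.07.

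A split of the 6 telogen arrays of 2-month mice from the other 9 telogen arrays was drawn after the values were seen. In Bst2 and Zbp1, 2 of 29 genes, all 6 lay above the other 9, against 0.555% of all genes. Since the values prompted the split, this count is a description and supports nothing. For Bst2 the HFD 4 days arrays read 1.42, 1.18 and 1.23, and the 9 others ran from -0.37 to 0.40. For Zbp1 the HFD 4 days arrays read 1.42, 1.97 and 1.67, and the 9 others ran from 0.09 to 1.12. All 6 arrays lay on slide 2, so age and slide cannot be told apart in telogen. Age and slide are crossed only on single anagen arrays. Slide 2 also held the HFD 3 months anagen array, from 5-month mice, and slide 3 held the HFD 4 days anagen array, from 2-month mice. Both have no replicate and both are HFD, and whether the levels go with age or with slide was not tested. On the slide 2 anagen arrays Bst2 read 0.42 in HFD 3 months and 0.36 in ND 4 days, against -1.33, -0.35 and -0.78 on the other slides. Zbp1 read 0.79 and 0.94 there, against -0.06, 0.02 and 0.39. In both genes the HFD 4 days anagen array, on slide 3, was below both slide 2 arrays. With the slide as a block the ND 3 months against ND 4 days difference was 0.29 for Bst2 and -0.12 for Zbp1. The slide term in that difference comes from the single HFD 3 months anagen array. A second Zbp1 probe, for another transcript, gave -0.03 ± 0.55 in that comparison and 1.33 ± 0.55 for aged against ND 4 days, where the brighter probe gave -1.14.

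**Figure D4:**
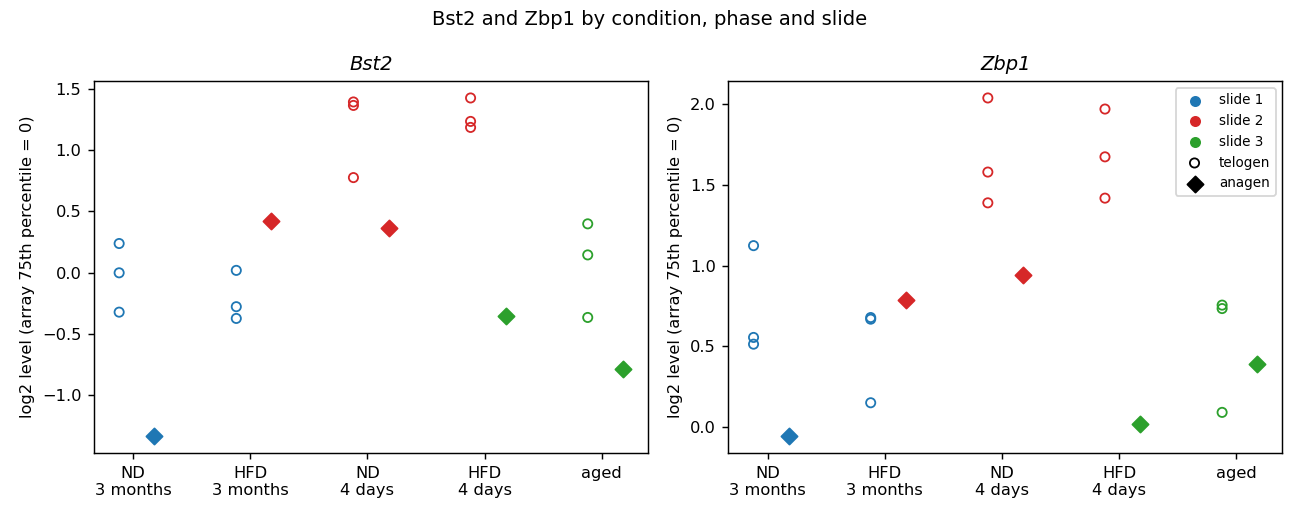
Log2 levels (vertical axis, 0 is the 75th percentile of the array) of Bst2 and Zbp1 by condition (horizontal axis), with telogen arrays as open circles, anagen arrays as diamonds and colour for the slide. All 6 telogen arrays on slide 2 lie above the other 9 in both genes, and among the 5 anagen arrays the 2 on slide 2 are the highest.

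In anagen each condition had 1 array, so diet and age differences there have no replicate check and no test. HFD against ND was above 0 for 17 of 29 genes after 3 months, against 64.3% of all genes, with a median of 0.293 against 0.445 over all genes, and for 12 after 4 days, against 44.4%, with a median of -0.169 against -0.0852. Past 4-fold were 4 genes at 3 months, against 14.5% of all genes, and 3 at 4 days, against 9.46%. Among them Oasl2, Cmpk2 and Herc6 at 3 months and Xaf1 and Herc6 at 4 days had 1 array not well above background. Herc6 went from -1.21 in ND to -5.64 in HFD at 3 months and from -5.84 to -2.30 at 4 days, and on the HFD 3 months and ND 4 days arrays it was not well above background. Aged against ND 3 months was above 0 for 22 of 29, against 60.6%, with a median of 0.552 against 0.256 over all genes and 4 genes past 4-fold, against 13.9%. Aged against ND 4 days was above 0 for 13, against 46.8%, with a median of -0.234 against -0.0579 and 7 genes past 4-fold, against 12.1%. Parp9, at a log2 difference of 2 after rounding, is not among these 7. Past 4-fold with 1 array not well above background were Xaf1 against ND 3 months and Oasl2, Ifit1, Xaf1 and Herc6 against ND 4 days.

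Within 12 genes that had a second tested probe, both probes gave a difference of the same sign in 4 for HFD at 3 months, 9 for HFD at 4 days, 5 for each aged comparison, 3 for ND 3 months against ND 4 days, 4 for diet by duration and 7 for anagen. For these genes the value of a comparison depends on the probe, and the main values are those of the brighter one.

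Other genes of the pathway, listed by their role, passed in anagen against telogen alone among the 7 tested comparisons, where 6.11% of all genes passed. Of 5 tested interferon genes 0 passed, and all 5 had differences below 0. Of 9 receptor chains and kinases 1 passed: Ifnar1, the type I receptor chain, fell by 0.54 on the log2 scale (adjusted p 0.0398, limma). Of 16 sensors and adaptors and of 11 brakes on the pathway 0 passed. In the gamma axis 1 of 13 passed, Igtp, an immunity-related GTPase, which fell by 2.60 (adjusted p 0.00782, limma) and was well above background on 4 of 5 anagen arrays.

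Of 35 other interferon-induced genes 3 rose and 3 fell in anagen, beside 2.81% and 3.31% of all genes. Phf11a and Phf11d, neighbouring paralogs that probes may not tell apart, rose. They were well above background on 5 and 8 of 15 telogen but 5 of 5 anagen arrays, so no size is given for their differences. Lgals9, which encodes galectin-9, rose by 2.39. Isg20, an exonuclease, fell by 2.54, Tor3a by 1.37 and Shisa5 by 0.92. Of 14 genes of the MHC class I pathway 2 passed, the class I genes H2-Q4 and H2-M3, which fell by 0.68 and 2.42. The median difference was -0.144 in the other induced genes and -0.227 in the class I list, against -0.156 over all genes.

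In the telogen comparisons 0 genes of these lists passed (limma), and the smallest unadjusted p values were as follows. For HFD at 3 months they were those of Sp100, at -2.96, and Ifitm1, at least 3.96-fold lower with 0 of 3 HFD and 2 of 3 ND arrays well above background. For HFD at 4 days they were Tapbpl, a peptide-loading factor, at 3.29 (adjusted p 0.579), and Socs3, a brake on cytokine receptors, at -2.96. The RNA exonuclease Pnpt1 differed in aged by -1.90 against ND 3 months (adjusted p 0.265) and -2.65 against ND 4 days (adjusted p 0.161), and the RNA editor Adar differed by -3.48 in the first of these. Tapbpl differed by 2.78 for aged against ND 4 days. For ND 3 months against ND 4 days Tapbpl and Sp100 differed by 3.44 (adjusted p 0.217) and 3.49 (adjusted p 0.242), and for diet by duration by -3.07 and -3.57. Comparisons that use the ND 4 days arrays share them, so the values of Tapbpl are not separate observations.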

How the data were processed

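Total RNA was Cy3-labelled as cDNA and hybridised to 1 Agilent mouse array per sample, per the labels' protocols. Per the file headers and the submitters' processing notes, Agilent Feature Extraction 10.7.1.1 gave background-corrected spot intensity on a linear scale. The authors' deposited values of the whole series are the same signal scaled per array: in log2 they differed from the scaled log2 intensity by a median of at most 0.01 on any array.

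From 59305 spots, the mean intensity of each of 56605 probes was taken, converted to log2, and set against the array's own 75th percentile by subtraction. Spots marked as outliers were set to missing, and 0 were saturated. Probes were matched through their transcript accession to RefSeq symbols (GRCm38.p6), with 32994 matched and 23611 unmatched. Testing needed a probe to stand well above background on every array of some telogen group, or on 3 or more of the 5 anagen arrays (43395 probes), and the brightest tested probe stands for a gene. Spots well above background made up 60.7% to 83.49% of an array. The share was 60.7% to 71.11% in anagen and 64.32% to 83.49% in telogen. In telogen at 4 days it was 77.09% to 83.49% with ND and 68.82% to 71.47% with HFD. At 3 months it was 73.67% to 77.6% with ND and 64.32% to 74.44% with HFD. Its part in the values of dim genes was not tested.

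The 15 telogen arrays entered 1 limma model, and anagen with telogen over all 20 with a term for condition (R 4.3.3, limma 3.58.1, jsonlite 2.0.0 and data.table at version 1.17.8), two-sided, with Benjamini-Hochberg adjustment over 18727 genes and a threshold of 0.05. The fits were tested on simulated data. A fold marked "at least" takes, for each dim array, the lowest signal that passed as well above background there, or the dim probe's own value where higher.

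The members, lists and tests were chosen with earlier results of these data known. Values are given for genes past the threshold, the 4 members with the smallest unadjusted p in each comparison, the brightest probe of each role group, and, from the other pathway lists, genes past the threshold and the 2 with the smallest p in each comparison. Further members are named as counted ones or after their values were seen (Herc6 in anagen, Oasl2, Cmpk2, Psmb8). The split of the 2-month telogen arrays from the other telogen arrays was also drawn after the values were seen. Replicate numbers did not pair samples: deviations from group means correlated between -0.139 and 0.0586 over 30 pairs of arrays with the same number and between -0.105 and 0.109 over the other 60. Alternatives tried were normexp with an offset of 50 (on the median signal), quantile and median scaling, other filters on dim probes, the mean over probes, the series table, eBayes with a trend, only the arrays compared, only conditions with both phases on 1 slide, a replicate or slide block, and leaving out each array.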

Additional observations from a re-analysis of the deposited data

Results flagged for a closer look

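In 1 case a sample lay far from the others of its group of 5: the difference of Dtx3l between anagen and telogen was -0.359 in HFD 3 months, against 0.777 with ND 3 months, 1.01 and 1.17 at 4 days of ND and HFD, and 0.948 in aged. This was judged by Dixon's gap criterion on the 5 conditions of each of 29 genes, and chance marks about 1 in 20 groups. Telogen groups of 3 are too small for the criterion and were not tested.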

How the results depend on the processing

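Over the alternatives other than leaving out an array, 306 of 323 values of named genes kept their direction and side of the threshold, 11 turned and 6 lost their call. Leaving out an array kept 243 of 248, with 5 calls lost. In every telogen comparison 0 of 29 interferon response genes passed under each alternative run. The cause of the moves was not tested unless stated.

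The counts of genes passing, over all 18727, moved as follows. For HFD at 3 months the count of 0 became 1 with quantile normalization, 1 with median scaling, and 0 to 1 when leaving out an array. For HFD at 4 days it became 1 with only the arrays compared, and 0 to 1 leaving out an array. For aged against ND 3 months the count of 12 became 2 with normexp, 0 with only probes well above background on all arrays, 0 with only the arrays compared, 5 with the slide block and 5 to 24 leaving out an array. For aged against ND 4 days the count of 7 became 3 with normexp, 12 with quantile normalization, 0 with probes above background on all arrays, 0 with only the arrays compared, 1 with the slide block and 4 to 6 leaving out an array. For ND 3 months against ND 4 days the count of 3 became 0 with only the arrays compared, 7 with the slide block and 0 to 4 leaving out an array. For diet by duration the count of 0 became 1 with median scaling, 1 with only the arrays compared and 0 to 1 leaving out an array. For anagen the count of 1145 became 317 with conditions on 1 slide, 677 with the slide block and 555 to 2056 leaving out an array, and that of the 29 genes went from 4 to 2 with the mean over probes, 0 with conditions on 1 slide and 2 to 8 leaving out an array.

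The median of the 29 genes moved to 0.18 for aged against ND 3 months with the slide block, and for diet by duration to 0.36 with probes above background on all arrays and between -0.22 and 0.23 leaving out an array, against a standard deviation between replicates of 0.34.

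Directions turned for Stat2 in HFD at 3 months, at 0.26, and for Zbp1 in aged against ND 4 days, at 0.09, with the mean over probes. The slide block turned Oas2 (-0.93) and Parp9 (1.81) in aged against ND 3 months, Zbp1 (0.12) in aged against ND 4 days, and Bst2 (0.29), Oas2 (0.07) and Ifit1 (-1.12) in ND 3 months against ND 4 days. In anagen Stat2 turned to -0.07 with the mean over probes and to -1.38 on its second probe, and Ifi27l2a to -0.37 on its second probe, an alternative chosen after seeing the data.

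With the replicate block, which pairs arrays by number alone, the counts were 7 for aged against ND 3 months and 0 for ND 3 months against ND 4 days, and 0 of the 29 genes passed.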
